A study of Caenorhabditis elegans with 6 samples.

Results

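The genes described here are 7 genes of fatty acid synthesis and delta-9 desaturation in the nematode Caenorhabditis elegans, chosen by gene symbol: the regulators sbp-1 and mdt-15, the delta-9 desaturases fat-5, fat-6 and fat-7, the acetyl-CoA carboxylase gene pod-2 and the fatty acid synthase gene fasn-1. All 7 were found among the 17118 genes named on the array, on 8 of its 20766 probe sets that carry a single gene name, and the brightest probe set stands for a gene. RNA of whole L1 larvae, the first larval stage, hatched without food, was hybridised to 6 Affymetrix arrays, 2 for each of 3 groups: elo-5(gk208) mutants supplemented with C13ISO (elo-5 C13ISO), elo-5(gk208) mutants supplemented with C17ISO (elo-5 C17ISO), and the wild-type strain N2 supplemented with C13ISO (N2 C13ISO). The grandparents of all larvae fed on OP50 bacteria with 1 mM C17ISO in DMSO, and the parents on OP50 with 1 mM of C13ISO or C17ISO, all at 20 °C. Bleached eggs were left on plates without food, and the larvae were collected after 24 h. C17ISO deficiency is given in the labels for the first group only. A single mutant allele was used, and the N2 strain with C17ISO was not analysed here.

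Fatty acid synthesis starts when acetyl-CoA carboxylase makes malonyl-CoA, from which fatty acid synthase builds saturated chains. Delta-9 desaturases then place the first double bond in those chains: FAT-5 acts mainly on palmitic acid, and FAT-6 and FAT-7 act mainly on stearic acid to give oleic acid, the entry to the polyunsaturated fatty acids of worm membranes. SBP-1, the worm homologue of the sterol regulatory element binding proteins (SREBP), and the Mediator subunit MDT-15 promote transcription of these enzymes, MDT-15 also with the nuclear hormone receptor NHR-49. ELO-5 is an elongase needed for C17ISO, a saturated fatty acid branched by a methyl group. C13ISO is of the same kind with a shorter chain.

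The deposited values are intensities on a linear scale, with array medians of 107 to 134. Spearman correlations over all probe sets were 0.984 to 0.989 within a group, 0.981 to 0.982 between elo-5 C17ISO and N2 C13ISO, and 0.926 to 0.943 between elo-5 C13ISO and the other groups. The elo-5 probe set read 217 and 144 in elo-5 C13ISO, 146 and 178 in the elo-5 C17ISO group, and 1170 and 1608 in N2 C13ISO. Both mutant groups were thus below N2, by 7.18-fold (adjusted p = 5.3e-06) and 7.82-fold (adjusted p = 2.1e-04) in limma's test; whether its probes lie inside the deleted stretch is not stated. Differences and folds below are on the scale of log2(intensity + 16), which understates the change of dim genes, and a gene is called changed where its limma p, adjusted by the Benjamini-Hochberg method over 15783 probe sets, is under 0.05. In elo-5 C13ISO against elo-5 C17ISO, 57.8% of the called probe sets were higher as deposited and 36.2% with array medians aligned. Against N2 C13ISO the same shares were 53.2% and 38.4%. That scaling took the median difference of all probe sets from 0.07 to -0.16 and from 0.02 to -0.14.

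Each gene is given below by its name, its probe set and its chromosome. The regulators sbp-1 (probe set 192735_s_at) and mdt-15 (179869_at) lie on chromosome III, fat-5 (192357_at) and fat-7 (192578_at) on V, fat-6 (187997_s_at) on IV, pod-2 (190496_s_at) on II and fasn-1 (174796_at and the dimmer 189768_at) on I. Affymetrix gives the suffix _s_at to probe sets whose probes match more than 1 transcript. The fat-6 and fat-7 genes encode closely related proteins, and whether the fat-6 probe set also reads fat-7 RNA was not tested. A further probe set shared by mdt-15 and another gene was not used. All 7 genes passed the filter on dim probe sets, which removed those below the 30th percentile of mean log2 intensity.

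In elo-5 C13ISO larvae fat-5 fell more than 8-fold against both other groups, and fat-7 and pod-2 fell more modestly. The gene sbp-1 rose against both, in calls that did not hold with array medians aligned. Against elo-5 C17ISO, 3 of the 7 genes fell, 1 rose and 3 were not called. The share of all probe sets called in that comparison was 44.5% in either direction, 25.7% higher and 18.8% lower, so the count of members is close to the background. The arrays of both groups did not overlap for 5 of the 7 genes, and for 71.4% of all probe sets. Against N2 C13ISO 3 fell, 2 rose and 2 were not called, where 43.6% of all probe sets were called, 23.2% higher and 20.4% lower. There all 7 genes had groups that did not overlap, as had 72.6% of all probe sets. Between elo-5 C17ISO and N2 C13ISO 0 of the 7 were called in limma's test, with 1.41% of all probe sets called, 0.767% higher and 0.64% lower. Of the 7, 4 had groups that did not overlap, against 50.9% of all probe sets. In that last comparison fat-6 alone had an unadjusted p under 0.05, and both genotype and supplement differ. The 3 comparisons share arrays and are not independent of each other.

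**Figure D1:**
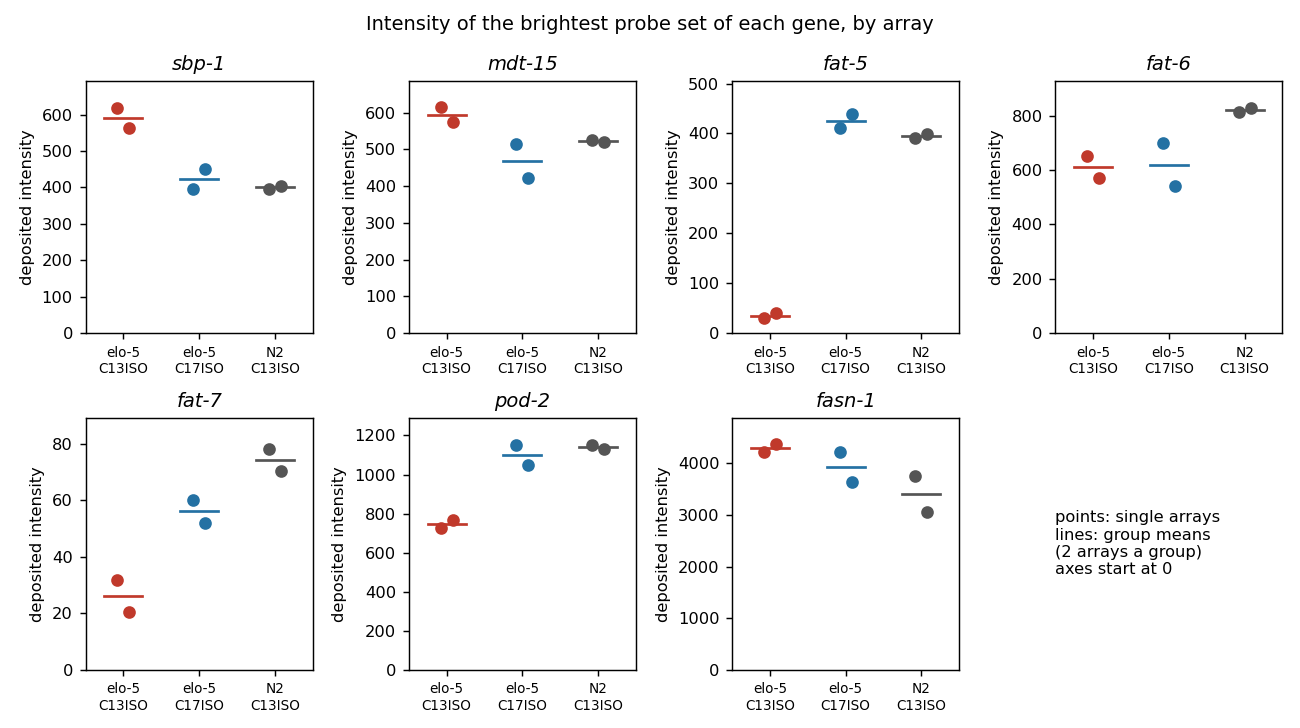
Deposited intensity (vertical axes, linear, starting at 0) of the brightest probe set of each of the 7 genes on the 6 arrays, with points for single arrays and lines for the means of 2 arrays. The fat-5 points of elo-5 C13ISO lie at 30.7 and 39.2, far below the 391 to 439 of the other 4 arrays.

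Among the regulators, sbp-1 read 619 and 564 in elo-5 C13ISO, 396 and 452 in the elo-5 C17ISO group, and 397 and 405 in N2 C13ISO. The 2 elo-5 C13ISO arrays were the highest of the 6, and the ranges of the other groups overlapped. The rise was 1.38-fold against elo-5 C17ISO (log2 0.47, SE 0.15, adjusted p = 0.0278) and 1.45-fold against N2 C13ISO (log2 0.54, SE 0.15, adjusted p = 0.0145). Neither call held with array medians aligned, where the differences were 0.24 (adjusted p = 0.233) and 0.38 (adjusted p = 0.0681). The call against elo-5 C17ISO was also lost in a fit of only the arrays compared (adjusted p = 0.0563) and without elo-5 C13ISO replicate 1 (0.0793), elo-5 C17ISO replicate 1 (0.151), N2 C13ISO replicate 1 (0.0566) or N2 C13ISO replicate 2 (0.057). The call against N2 was lost without N2 C13ISO replicate 1 (0.0881) or replicate 2 (0.0811). Between elo-5 C17ISO and N2 C13ISO the sbp-1 difference was 0.07, with a 95% interval of -0.26 to 0.41.

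The coactivator gene mdt-15 read 614 and 575 in elo-5 C13ISO, 516 and 421 in the elo-5 C17ISO group, and 524 and 519 in N2 C13ISO. Its elo-5 C13ISO arrays were again the highest, but it was not called in any comparison. The log2 difference was 0.34 against elo-5 C17ISO (interval -0.00 to 0.68, adjusted p = 0.098), 0.18 against N2 C13ISO (interval -0.16 to 0.52), and -0.16 between elo-5 C17ISO and N2 C13ISO (interval -0.50 to 0.18).

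Among the desaturases, fat-5 read 30.7 and 39.2 in elo-5 C13ISO, 410 and 439 in the elo-5 C17ISO group, and 391 and 399 in N2 C13ISO. The elo-5 C13ISO arrays stood apart from the other 4. The fall was 8.67-fold against elo-5 C17ISO (log2 -3.12, SE 0.17, adjusted p = 4.1e-07) and 8.1-fold against N2 C13ISO (log2 -3.02, SE 0.17, adjusted p = 4.8e-07). Only 0.748% of all tested probe sets had a lower difference in the first comparison, and 2.69% were called and at least 4-fold lower. In the second those shares were 0.881% and 2.77%. The fat-5 call held under all 17 alternative settings in both comparisons. Of these settings, the mean of a gene's probe sets changes the values of fasn-1 alone among the 7 genes. Because its elo-5 C13ISO values are near the offset of 16, the size depends on that offset: against elo-5 C17ISO the log2 difference was -3.57 with an offset of 1 and -2.30 with an offset of 64. Between elo-5 C17ISO and N2 C13ISO fat-5 differed by 0.10, with an interval of -0.27 to 0.47.

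The stearic acid desaturase gene fat-7 was dim on this array. It read 31.6 and 20.3 in elo-5 C13ISO, 60.3 and 52 in the elo-5 C17ISO group, and 78.3 and 70.5 in N2 C13ISO. The groups did not overlap in any pairing and ranked with elo-5 C13ISO lowest and N2 highest. Against N2 C13ISO fat-7 fell 2.17-fold (log2 -1.12, SE 0.21, adjusted p = 0.00148), a call kept in the 16 settings that tested it, and against elo-5 C17ISO it fell 1.73-fold (log2 -0.79, adjusted p = 0.0104). The second call did not hold without elo-5 C13ISO replicate 2 (log2 -0.60, adjusted p = 0.0558) and without elo-5 C17ISO replicate 1 (-0.71, adjusted p = 0.066), and its size ran from -1.11 with an offset of 1 to -0.42 with an offset of 64. The step between elo-5 C17ISO and N2 C13ISO was -0.33, with an interval of -0.78 to 0.13, and was not called.

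Its close relative fat-6 read 650 and 570 in elo-5 C13ISO, 698 and 541 in the elo-5 C17ISO group, and 815 and 829 in N2 C13ISO. Here the 2 mutant groups overlapped and both lay below N2, a different order from fat-5. The difference was -0.01 between the mutant groups (interval -0.37 to 0.34), -0.42 against N2 in elo-5 C13ISO (interval -0.78 to -0.07, adjusted p = 0.055) and -0.41 against N2 in elo-5 C17ISO (interval -0.77 to -0.05, adjusted p = 0.246). The difference between elo-5 C13ISO and N2 passed the threshold in 6 of 17 alternative settings, for example with array medians aligned (-0.58, adjusted p = 0.0104) and without elo-5 C13ISO replicate 1 (-0.52, adjusted p = 0.0445), elo-5 C17ISO replicate 1 (adjusted p = 0.0432) or elo-5 C17ISO replicate 2 (adjusted p = 0.0419).

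The 3 desaturases were also set against each other within the same arrays. The log2 difference of fat-5 minus fat-6 was lower in elo-5 C13ISO by -3.10 against elo-5 C17ISO and by -2.59 against N2 C13ISO. That of fat-5 minus fat-7 was lower by -2.32 and -1.90, and that of fat-6 minus fat-7 was higher by 0.78 and 0.69. In each of these 6 contrasts the groups did not overlap, and the exact two-sided permutation test over arrays gave p = 0.333, the smallest that 6 arrangements of 2 against 2 arrays allow, for each of them, so this design cannot pass 0.05 (15 contrasts of pairs were computed). Between elo-5 C17ISO and N2 C13ISO, fat-5 minus fat-6 (0.51) and fat-5 minus fat-7 (0.42) also had no overlap and the same p. There fat-6 minus fat-7 differed by -0.08 (permutation p = 0.667). For sbp-1 minus mdt-15 the elo-5 C13ISO arrays overlapped with elo-5 C17ISO (0.13) but not with N2 (0.36).

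**Figure D2:**
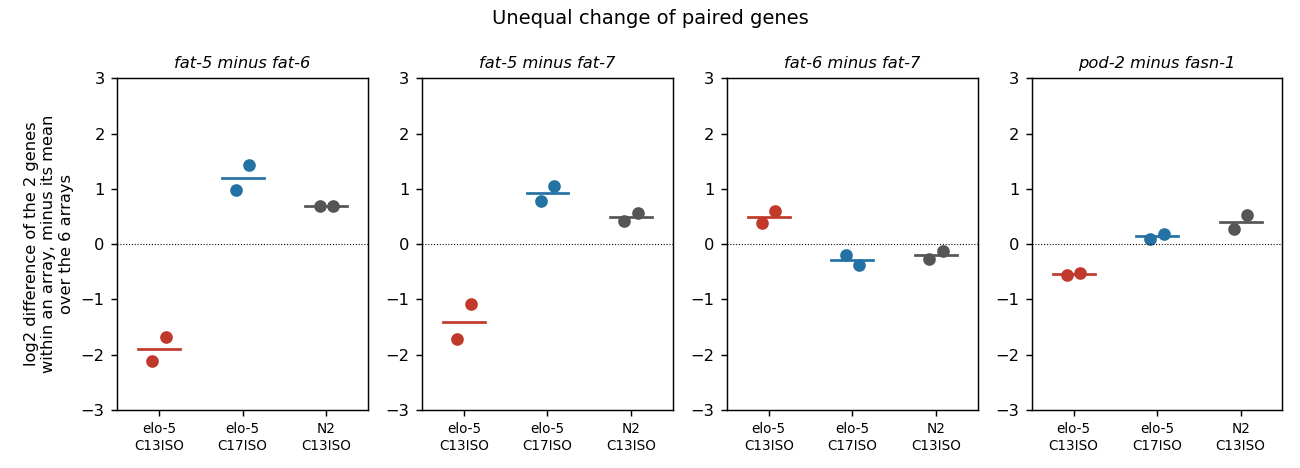
Difference between the log2(intensity + 16) of 2 genes within each array, minus its mean over the 6 arrays, with points for arrays and lines for means of 2 arrays. The fat-5 minus fat-6 panel shows the widest gap, -3.10 between elo-5 C13ISO and elo-5 C17ISO.

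Of the synthesis genes, pod-2 read 727 and 765 in elo-5 C13ISO, 1152 and 1050 in the elo-5 C17ISO group, and 1152 and 1130 in N2 C13ISO. Its elo-5 C13ISO arrays were the lowest of the 6, and the other groups overlapped. The fall was 1.47-fold against elo-5 C17ISO (log2 -0.55, SE 0.13, adjusted p = 0.00538) and 1.52-fold against N2 C13ISO (log2 -0.60, SE 0.13, adjusted p = 0.00322), and the call held under all 17 settings in both comparisons. Between elo-5 C17ISO and N2 C13ISO pod-2 differed by -0.05, with an interval of -0.33 to 0.23.

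The fatty acid synthase gene fasn-1, whose enzyme acts right after that of pod-2, read 4216 and 4375 in elo-5 C13ISO, 4222 and 3636 in the elo-5 C17ISO group, and 3755 and 3067 in N2 C13ISO on its brighter probe set. Neighbouring groups in that order overlapped. Against N2, elo-5 C13ISO stood 1.26-fold higher (log2 0.34 with an SE of 0.12, adjusted p = 0.037). That call did not hold with array medians aligned (0.18, adjusted p = 0.177), with no filter (adjusted p = 0.0619), with no trend on intensity (0.125), or with elo-5 C13ISO replicate 1 (0.0655), elo-5 C13ISO replicate 2 (0.119) or N2 C13ISO replicate 2 left out (log2 0.19, adjusted p = 0.333). The dimmer fasn-1 probe set disagreed: it read 2152 and 2320 in elo-5 C13ISO against 2648 and 2166 in N2, a difference of -0.10 (interval -0.36 to 0.17), and the mean of both probe sets gave 0.12 (adjusted p = 0.422). Against elo-5 C17ISO the brighter probe set differed by 0.13 (interval -0.13 to 0.39) and the dimmer by -0.19 (interval -0.46 to 0.07). The log2 difference of pod-2 minus fasn-1 was lower in elo-5 C13ISO by -0.68 against elo-5 C17ISO and by -0.94 against N2, with no overlap and the smallest possible exact permutation p of 0.333. The step between elo-5 C17ISO and N2 C13ISO, -0.26, also had no overlap and the same permutation p.

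**Figure D3:**
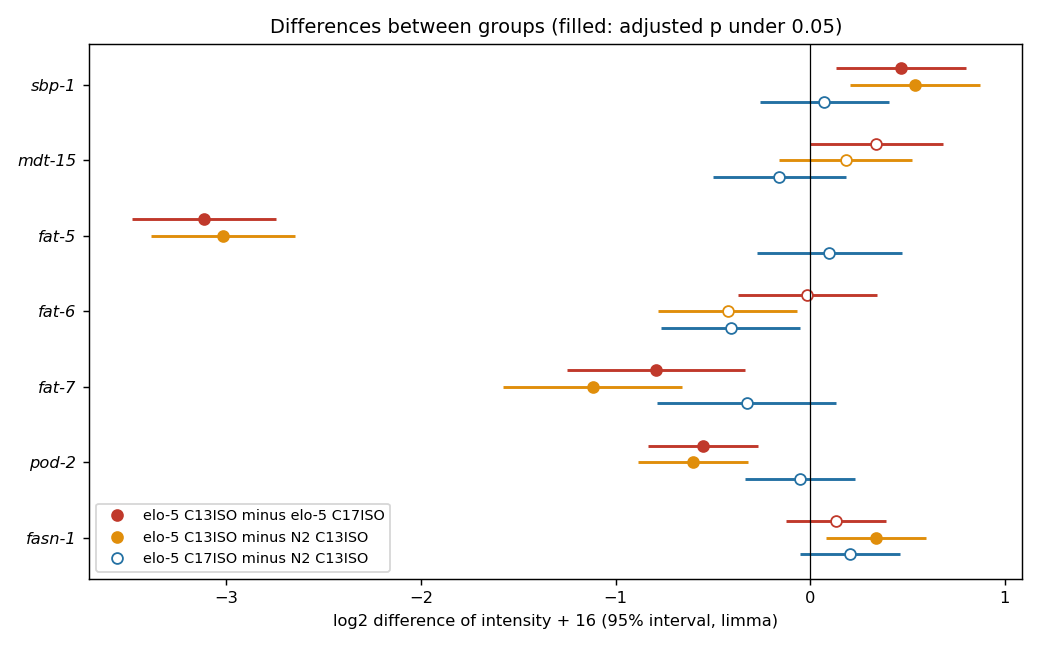
Log2 differences of intensity + 16 (horizontal axis) with 95% intervals from limma for each gene in the 3 comparisons, filled where the adjusted p was under 0.05. The fat-5 intervals of both comparisons with elo-5 C13ISO end below 0, whereas all 7 points of elo-5 C17ISO minus N2 C13ISO are open.

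Other genes of the pathway were read against the share of all probe sets called, 44.5% against elo-5 C17ISO and 43.6% against N2. Of 10 regulators of delta-9 desaturase genes in C. elegans, 2 rose and 2 fell in elo-5 C13ISO against elo-5 C17ISO, and 1 rose and 1 fell against N2. The share called was thus close to that of all probe sets in the first comparison and below it in the second, for a list chosen with earlier results known. With array medians aligned the rises were 1 and 0. The acyl-CoA dehydrogenase gene acdh-11, whose product restrains fat-7 expression, fell 2.68-fold against elo-5 C17ISO (674 ± 83.1 against 1827 ± 36.2, SD, n = 2, adjusted p = 1.6e-05) and 1.95-fold relative to N2 (adjusted p = 1.9e-04). The FOXO factor gene daf-16 rose 1.76-fold against elo-5 C17ISO (1747 ± 67.8 against 1011 ± 323, SD, n = 2, adjusted p = 0.0053), and its log2 difference ran from 0.49 without elo-5 C17ISO replicate 2 to 1.14 without elo-5 C17ISO replicate 1. Against N2 daf-16 was not called (log2 0.45, adjusted p = 0.0753). The receptor gene nhr-80, which promotes desaturase expression, fell 1.58-fold (adjusted p = 0.0322) and the receptor gene nhr-10 rose 1.35-fold (adjusted p = 0.0448) in that comparison, calls that held in 9 and 7 of 16 settings, and neither was called against N2 (log2 -0.37 and 0.20). The nhr-80 call needed elo-5 C13ISO replicate 2 (adjusted p = 0.172 without it) and every array of the other groups (0.0501 to 0.167 without 1 of them). With array medians aligned the nhr-10 difference was 0.20 (adjusted p = 0.308), and with a replicate block its adjusted p was 0.0546. The nhr-10 call also needed elo-5 C13ISO replicate 1 (adjusted p = 0.179 without it), elo-5 C17ISO replicate 1 (0.230) and both N2 C13ISO arrays (0.0757 and 0.0762). Against N2 the AMP-activated kinase gene aak-2 rose 1.30-fold (adjusted p = 0.0166), a call lost with array medians aligned (0.156), with no trend on intensity (0.0622), and with elo-5 C13ISO replicate 2 (0.0813), N2 C13ISO replicate 1 (0.0807) or N2 C13ISO replicate 2 (0.110) left out. The receptor gene nhr-49, named after its values were seen, read 2706 ± 34.1 in elo-5 C13ISO, 2167 ± 408 in the elo-5 C17ISO group and 2562 ± 111 in N2, and was not called (log2 0.33, adjusted p = 0.0611, and 0.08, adjusted p = 0.659).

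Phosphatidylcholine, the main membrane phospholipid, limits SBP-1 processing in the worm, and 8 of 10 genes listed for SREBP processing and phosphatidylcholine supply were on the array. Against elo-5 C17ISO 4 rose and 2 fell, and against N2 3 rose and 2 fell, above the share of all probe sets called. With array medians aligned, 3 rose and 3 fell, and 3 rose and 2 fell. The methyltransferase genes of the worm's phosphatidylcholine route changed in opposite directions: pmt-1 rose 2.6-fold (4150 ± 663 against 1587 ± 232, adjusted p = 3.1e-05) and pmt-2 fell 1.75-fold (2534 ± 21.9 against 4457 ± 35.3, adjusted p = 5.3e-05) against elo-5 C17ISO. Against N2 they changed by 2.08-fold and 1.91-fold in the same directions. The lipin gene lpin-1, encoding a phosphatidate phosphatase, rose 2.46-fold against elo-5 C17ISO and 2.26-fold against N2. The phosphotransferase gene cept-1 rose 2.53-fold against elo-5 C17ISO, with a log2 difference of 0.92 to 1.76 over the settings, but was not called against N2 (1.37-fold higher, adjusted p = 0.228). In elo-5 C17ISO cept-1 read 73.0 ± 20.6 against 148 ± 31.1 in N2, also not called (adjusted p = 0.171). The gene pcyt-1, of the CDP-choline route, rose 1.83-fold against N2 and 1.58-fold against elo-5 C17ISO (adjusted p = 0.00802 in limma's test). The calls of pmt-1, pmt-2, lpin-1 and cept-1, and that of pcyt-1 against N2, held in all 16 settings run on them. The other gene of this list to fall was sams-1, in both comparisons. Its log2 difference was -0.44 against elo-5 C17ISO (limma adjusted p = 9.7e-04) and -0.61 against N2 (adjusted p = 1.2e-04). The SREBP escort gene scp-1 was not called (log2 -0.22 and -0.11). Both sams-1 and scp-1 were named after their values were seen.

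Of 10 genes supplying acetyl-CoA, NADPH and biotin, 4 fell and 1 rose against elo-5 C17ISO, and 3 fell and 0 rose against N2 in limma's test. The share called was close to that of all probe sets in the first comparison and below it in the second. With array medians aligned 7 and 6 fell. The ATP citrate lyase gene acly-2 fell 3.62-fold, from 586 ± 28.3 to 150 ± 0.417 (adjusted p = 6.0e-06), and 3.78-fold against N2. Its paralogue acly-1 fell 1.96-fold and 1.93-fold, the first log2 difference going from -0.97 to -0.64 without elo-5 C17ISO replicate 1. The isocitrate dehydrogenase gene idh-1 fell 1.45-fold against N2. The fall of the acetyl-CoA synthetase gene acs-19 against elo-5 C17ISO (1.38-fold, adjusted p = 0.0174) did not hold with elo-5 C13ISO replicate 1 (0.0519) or elo-5 C17ISO replicate 1 (0.129) left out. The rise of the glucose-6-phosphate dehydrogenase gene gspd-1 (1.33-fold, adjusted p = 0.0465) held in 7 of 16 settings, and in those leaving out 1 array held only without elo-5 C13ISO replicate 2 (adjusted p of 0.079 to 0.164 without 1 of the others).

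Of the other elongation and desaturation genes, 16 of 17 were on the array and 15 passed the filter. Against elo-5 C17ISO 10 fell, 0 rose and 5 were not called, with a median log2 difference of -0.68 where all tested probe sets had 0.07. Against N2 11 fell, elo-5 itself among them, and 0 rose, with a median of -0.91. Of all probe sets 18.8% were called lower in the first comparison and 20.4% in the second. The list was chosen with earlier results of these data known. The gene of another elongase, elo-4, fell 6.29-fold and 6.60-fold, and acs-1, encoding an acyl-CoA synthetase for branched fatty acids, fell 2.49-fold and 2.21-fold. The elongase gene elo-6 fell 1.95-fold and the reductase gene let-767 fell 1.88-fold against elo-5 C17ISO, and the omega-3 desaturase gene fat-1 fell 2.32-fold against N2.

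Genes that depend on NHR-49 or MDT-15 for expression were listed apart from the desaturases, and 8 of 9 were on the array with 6 past the filter. This list too was chosen with earlier results of these data known. In each comparison with elo-5 C13ISO 5 fell and 0 rose, with medians of -1.37 and -0.92. Of all probe sets 18.8% and 20.4% were called lower. A carnitine palmitoyltransferase gene, cpt-5, was the most reduced of this list and fell 8.55-fold against elo-5 C17ISO and 6.98-fold against N2. The acyl-CoA synthetase gene acs-2 fell 3.42-fold and 2.85-fold, and the enoyl-CoA hydratase gene ech-1.1 fell 5.49-fold and 2.16-fold. The synthetase gene acs-11 fell 1.95-fold against elo-5 C17ISO and was not called against N2 (log2 -0.42, adjusted p = 0.0652). The hydroxyacyl-CoA dehydrogenase gene hacd-1 fell 1.66-fold against N2, a call lost without N2 C13ISO replicate 1 (adjusted p = 0.0518), and was not called against elo-5 C17ISO (log2 -0.39, adjusted p = 0.091). In elo-5 C17ISO ech-1.1 was 2.55-fold higher than in N2 (535 ± 11.4 against 200 ± 14.4, adjusted p = 0.00879), a call lost without any 1 of the 4 arrays compared (highest adjusted p = 0.133).

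Among 10 measured genes of triglyceride synthesis and lipid droplets, 3 rose and 3 fell in each comparison with elo-5 C13ISO, lpin-1 being shared with the list of phosphatidylcholine supply. Of all probe sets 25.7% were higher and 18.8% lower in the first comparison, and 23.2% and 20.4% in the second, so these counts are near the background. With array medians aligned the first comparison had 1 rise and 4 falls. The diacylglycerol acyltransferase gene dgat-2 rose 2.58-fold against N2 (572 ± 62.9 against 212 ± 15.3, adjusted p = 1.5e-04). The glycerol-phosphate acyltransferase gene acl-5 fell 1.83-fold and 1.89-fold, and the lipid droplet dehydrogenase gene dhs-3 fell 1.56-fold and 1.83-fold. The first of these dhs-3 calls was lost when elo-5 C17ISO replicate 1 was left out, with the log2 difference at -0.52 and the adjusted p just past the threshold. The synthetase gene acs-22 fell 1.57-fold against elo-5 C17ISO.

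**Figure D4:**
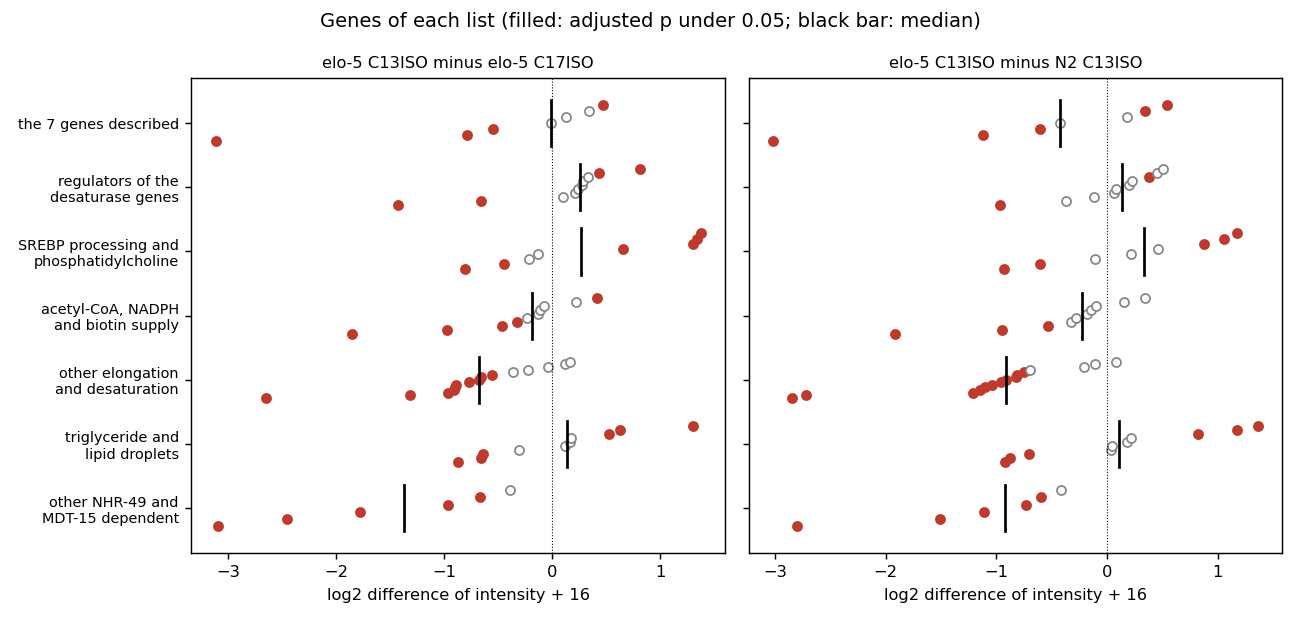
Log2 differences of intensity + 16 (horizontal axes) for the genes of each list that passed the filter, in both comparisons with elo-5 C13ISO, filled where the adjusted p was under 0.05, with a black bar at each list's median. The medians of the other elongation and desaturation genes lie at -0.68 and -0.91, and those of the other NHR-49 and MDT-15 dependent genes at -1.37 and -0.92.

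The desaturases and fatty acid synthesis genes act largely in intestine and hypodermis, and markers of other tissues moved in the same arrays. The shares of all probe sets called were 25.7% higher and 18.8% lower against elo-5 C17ISO, and 23.2% and 20.4% against N2. The summed intensity of 10 intestine markers was 19678 to 21538 in elo-5 C13ISO, 23256 to 24956 in the elo-5 C17ISO group and 25806 to 26121 in N2, with 4 markers higher and 4 lower against elo-5 C17ISO. The sum of 7 measured hypodermis markers was 16185 to 17251, 27060 to 27471 and 28567 to 28967 in the same order. Against elo-5 C17ISO 3 were lower, 0 higher and 4 not called, with a median log2 difference of -0.33. Relative to N2, 5 hypodermis markers were lower, 0 higher and 2 not called, with a median of -0.79. The sum depends strongly on the hypodermis marker rol-6, which ranged from 732 to 8420 over the arrays. Of 23 oocyte and early embryo markers 22 passed the filter, 20 rose and 0 fell against elo-5 C17ISO, and their sum was 14279 to 21174 against 4752 to 5813. Against N2 22 rose, with a sum there of 5784 to 6831. Muscle and neuron markers, also measured, fell in 2 of 8 and 0 of 8 tested genes and rose in 0 and 1 against elo-5 C17ISO. Relative to N2, 3 muscle markers fell and 1 rose, 0 neuron markers fell and 2 rose, and 3 intestine markers fell and 2 rose. With array medians aligned the counts against elo-5 C17ISO turned for the neuron markers, of which 4 were lower and 0 higher. They went to 6 lower hypodermis markers and to 2 higher and 5 lower intestine markers. Of 7 sperm markers on the array, 2 passed the filter. The lowest deposited value was 0.73, so no marker could read 0. Some markers reached very low values, such as chs-1 (1 to 108.5 over the arrays) and gsp-3 (2.1 to 15.6). In whole larvae, fewer or more cells of a type and less or more RNA per cell cannot be told apart. What lies behind the higher oocyte and early embryo markers was not tested. The part of these markers in the changes of fat-5, fat-7, pod-2 and sbp-1 was not tested either.

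The genes most like each member over the 6 arrays were found among 12056 other tested genes, by the Euclidean distance between log2 profiles from which each gene's mean was taken. The 3 nearest to fat-5 were the lipocalin-related gene lpr-4 (a mean of 245 in elo-5 C13ISO, 2487 with C17ISO and 2188 in N2, distance 0.161), the C-type lectin gene clec-230 (distance 0.168) and T26C5.2 (distance 0.169). Those nearest to fat-7 were arrd-13 (distance 0.133), K01A2.5 (0.142) and the omega-3 desaturase gene fat-1 (means of 1926, 3586 and 4453, distance 0.162). Nearest to fat-6 were Y51B9A.6, F32D8.15 and pacs-1 (0.0936 to 0.105), to pod-2 vha-12, dpy-18 and har-1 (0.077 to 0.0885), and to fasn-1 sqv-5, B0545.4 and F45G2.9 (0.121 to 0.138). Nearest to sbp-1 were Y47G6A.13, C50F4.8 and unc-47 (0.0758 to 0.125), and to mdt-15 Y54G2A.18, snt-1 and flr-4 (0.0576 to 0.099). The distances describe likeness of profile over these 6 arrays alone.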

How the data were processed

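The authors deposited linear intensities, 1 for each probe set on each array, computed with dChip per the labels; no source used here states its version, normalization or handling of mismatch probes. The table held 22548 probe sets, of which 20766 carried 1 gene name, 887 several and 895 none; 20701 of the one-gene sets matched a WBcel235 gene table, used for names and chromosomes only, since no build is named in the files. Samples were grouped by the labels. The series design calls the 2 arrays of a group biological replicates, and array number limits the precision.

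Values were taken as log2(intensity + 16), and probe sets above the 30th percentile of their mean (15783) entered 1 limma fit (lmFit, eBayes with an intensity trend, 3 residual and 6.94 prior degrees of freedom) over 6 arrays, with two-sided p-values adjusted by Benjamini-Hochberg at 0.05. The fit was tested on simulated data. Differences understate the change of dim genes. Standard errors and 95% intervals are limma's. The text names all 7 genes, elo-5, up to 4 called genes with the largest difference per list and comparison, and 3 nearest profiles per gene. Outside that rule, nhr-49, scp-1, sams-1 and the markers rol-6, chs-1 and gsp-3 were named after their values were seen. Genes and lists were chosen with earlier results of these data known. The alternatives were offsets of 1 and 64, no filter or a 50th percentile filter, quantile normalization, aligned array medians, no trend, a robust prior, only the arrays compared, a replicate block, the mean of a gene's probe sets, and each array left out. R 4.3.3, limma 3.58.1, Python 3.11.15, pandas 2.3.3 and matplotlib 3.10.9 were used.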

Additional observations from a re-analysis of the deposited data

How the results depend on the processing

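The direction and call of fat-5 and pod-2 in both comparisons with elo-5 C13ISO held in all 17 settings. The setting with the mean of a gene's probe sets could not alter their values, as each has a single one-gene probe set. The members called against elo-5 C17ISO numbered 2 to 4 with an array left out (main 4), the lowest without elo-5 C17ISO replicate 1, and those against N2 C13ISO 3 to 6 (main 5), the lowest without N2 C13ISO replicate 2. Probe sets called against N2 in elo-5 C13ISO were 4582 to 6913 with an array left out (main 6875), the lowest without N2 C13ISO replicate 2. Those between elo-5 C17ISO and N2 C13ISO (main 222) were 103 with no filter, 84 without an intensity trend, 534 with only the arrays compared and 26 to 504 with an array left out, the lowest without elo-5 C17ISO replicate 1; the cause was not tested. Each sign turned was of a difference not called: fasn-1 between the mutant groups with array medians aligned (-0.10) and with the mean of its probe sets (-0.031), fat-6 between the mutant groups without elo-5 C13ISO replicate 2 (0.08) or elo-5 C17ISO replicate 1 (0.16; range with an array left out -0.19 to 0.16), and, between elo-5 C17ISO and N2, pod-2 with array medians aligned (0.018) or without elo-5 C17ISO replicate 2 (0.015; range -0.12 to 0.015) and sbp-1 without that array (-0.018; range -0.018 to 0.16). The main fit did not pair samples by replicate number. Deviations of same-numbered arrays correlated between groups at 0.0015, 0.0541 and 0.0818. Such values cannot show whether same-numbered samples were handled together. With a replicate block 4, 6 and 0 members were called in the 3 comparisons, fat-6 against N2 being the gene added (adjusted p = 0.0492). Probe sets called with the block were 7175, 6968 and 242. The alternatives for lists and their genes were chosen after the data were seen; list counts that moved include neuron marker falls (0 to 4 against elo-5 C17ISO) and hypodermis marker falls (3 to 6 against elo-5 C17ISO, 4 to 7 against N2), the highest with array medians aligned, and the falls in acetyl-CoA, NADPH and biotin supply (2 to 7 against elo-5 C17ISO, 3 to 6 against N2), the rises among desaturase regulators (1 to 4 and 0 to 3) and in triglyceride synthesis (1 to 3 against elo-5 C17ISO), and oocyte and early embryo markers (11 to 21 and 11 to 22), the last at their lowest with a filter at the 50th percentile. That filter also left fat-7 untested.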
